A study of Mus musculus with 13 samples.

Results

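The genes described here are 10 markers of long-term haematopoietic stem cells, most of them proteins of the cell surface: Procr, Esam, Abcg2, Pdzk1ip1, Sult1a1, Ly6a, Eng, Robo4, Clec1a and Cd34. They were taken by name, and each was measured from the probe sets that the array's probe-to-gene table lists with that gene and no other. That gave 134 of 229581 probe sets, and 10 of the 16299 genes listed alone on at least 1 probe set. A gene's value on an array is the median log2 intensity of its probe sets, and 9 of the 10 members passed the filter on low values and entered the tests over 10575 genes. Clec1a did not pass, so its values are given without a test.

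The study profiled flow-sorted bone marrow cells of mice in which the PML-RARA fusion of acute promyelocytic leukaemia is expressed from the murine Ctsg locus (mCG-PR), and of wild-type (WT) littermates, on Affymetrix Mouse Exon 1.0 ST arrays. All mice were of the strain Bl/6 Taconic, the fusion mice carried the label mCG-PR N17, and each array held the RNA of 1 mouse, amplified from 20 ng. The groups were mCG-PR SLAM cells at 7 weeks (n = 2), WT SLAM cells at 6 weeks (n = 2), mCG-PR KLS cells at 13 weeks (n = 2) and at 6 weeks (n = 3), and WT KLS cells (n = 4), from 2 mice of 13 weeks and 2 of 12 weeks. KLS cells are Kit-positive, lineage-negative and Sca1-positive, a mixture of stem cells and multipotent progenitors, and SLAM cells are a sort by receptors of the SLAM family that enriches long-term stem cells. How the gates were set is not stated in the labels read here. Ctsg is active in maturing myeloid cells, and its own value averaged 5.86 on mCG-PR SLAM arrays and 6.85 on WT SLAM arrays, against 8.85 on mCG-PR KLS arrays of 13 weeks, 8.79 on those of 6 weeks and 8.50 on WT KLS arrays. With so few arrays a group, their number limits the precision.

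Long-term stem cells of the mouse are recognised by what they display and by what they lack. Procr (the endothelial protein C receptor), Esam, Eng and Robo4 are shared with endothelium, Ly6a is the Sca1 antigen itself, and Abcg2 is the efflux pump behind the dye-excluding side population. Cd34 works the other way in adult mice: it is a sialomucin that long-term stem cells lack or carry at low level and that multipotent progenitors display. Sult1a1, a cytosolic sulfotransferase, and Pdzk1ip1, a small membrane protein, are transcript markers of the same cells. In RNA from sorted cells, fewer cells of a type and less RNA per cell cannot be told apart.

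The arrays separated by sorted population along a first principal component that held 40.5% of the variance. Of the genes used to recognise the sorts, Cd48, which SLAM-sorted stem cells lack, averaged 4.25 on mCG-PR SLAM arrays and 5.13 on WT SLAM arrays, against 8.83 to 9.37 in the KLS groups. Slamf1, the CD150 receptor that those cells carry, was at 6.21 and 6.63 on the mCG-PR SLAM arrays, at 7.68 and 7.47 on the WT SLAM arrays, against 5.17 to 6.31 on the KLS arrays, a range that holds the lower mCG-PR SLAM array. Its change in SLAM against KLS cells was 0.96 in mCG-PR (adjusted p = 0.158) and 1.71 in WT (adjusted p = 0.0363, or 0.173 without WT SLAM replicate 2). WT SLAM replicate 2 stood apart on the second component (12.9% of the variance). Its mean over 9 neutrophil genes was 10.2, against 7.25 to 8.28 on the other SLAM arrays and 7.89 to 8.81 on KLS arrays, and its mean over 5 B cell genes was 7.60. The tested members' changes between WT SLAM and WT KLS cells are therefore given without it too. The Y-linked gene Eif2s3y was at 3.49 and 3.61 on the mCG-PR SLAM arrays, against 8.36 and 8.93 on the WT SLAM arrays, so sex and genotype cannot be told apart in SLAM cells. It was also low on mCG-PR KLS replicate 3 of 6 weeks, at 4.18.

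The promoters of the 4 members that passed between SLAM and KLS cells in at least 1 genotype are shown first. Sult1a1 passed as higher and Cd34 as lower in both genotypes, Procr as higher in mCG-PR alone and Pdzk1ip1 as higher in WT alone. The sequences are RefSeq's, in build GRCm38.p6, from 250 bases before to 50 after the annotated start, and 7 of the 10 members were matched. Esam, Ly6a and Clec1a were not. Capitals mark matches on either strand to 4 motifs: AGGTCA, a retinoic acid receptor half-site, AGATAA for GATA factors, AGGAAG for ETS factors and CAGCTG, an E-box. The Procr window is chr2:155750967-155751266 on the plus strand, that of Pdzk1ip1 chr4:115088458-115088757 on the plus strand, that of Sult1a1 chr7:126676369-126676668 on the minus strand and that of Cd34 chr1:194938571-194938870 on the plus strand.
Procr: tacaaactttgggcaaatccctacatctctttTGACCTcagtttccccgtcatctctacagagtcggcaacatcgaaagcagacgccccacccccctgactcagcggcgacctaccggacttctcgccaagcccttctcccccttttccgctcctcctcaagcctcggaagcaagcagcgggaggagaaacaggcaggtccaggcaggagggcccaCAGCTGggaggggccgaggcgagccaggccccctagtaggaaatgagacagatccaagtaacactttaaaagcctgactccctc
Pdzk1ip1: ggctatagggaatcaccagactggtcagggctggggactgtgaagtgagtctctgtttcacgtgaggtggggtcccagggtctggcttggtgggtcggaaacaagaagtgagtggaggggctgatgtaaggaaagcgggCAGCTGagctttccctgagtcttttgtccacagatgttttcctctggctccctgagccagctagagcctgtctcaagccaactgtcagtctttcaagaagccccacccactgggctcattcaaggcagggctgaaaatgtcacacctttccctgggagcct
Sult1a1: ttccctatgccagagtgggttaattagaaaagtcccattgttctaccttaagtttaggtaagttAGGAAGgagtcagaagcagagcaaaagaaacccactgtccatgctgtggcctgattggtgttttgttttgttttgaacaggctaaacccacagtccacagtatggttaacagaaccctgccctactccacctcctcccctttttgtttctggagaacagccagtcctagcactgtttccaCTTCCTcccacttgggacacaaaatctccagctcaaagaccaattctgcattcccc
Cd34: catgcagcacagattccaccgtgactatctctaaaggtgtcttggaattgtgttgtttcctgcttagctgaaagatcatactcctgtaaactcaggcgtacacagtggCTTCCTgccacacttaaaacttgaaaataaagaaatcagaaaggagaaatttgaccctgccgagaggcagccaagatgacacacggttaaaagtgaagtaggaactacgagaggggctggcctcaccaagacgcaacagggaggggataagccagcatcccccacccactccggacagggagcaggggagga
The half-site stood in the Procr window alone of these, read on the other strand, and 16.3% of all 32851 promoter windows of the same length hold it. Procr and Pdzk1ip1 shared the E-box, which 16.3% of windows hold, and Sult1a1 and Cd34 shared the ETS motif, which 35.4% hold. Of the matched members not shown, Abcg2 and Robo4 also held the half-site and the E-box. Abcg2, Robo4 and Eng also held the ETS motif. The GATA motif, in 11.2% of windows, was in none of these windows. A match is a description of the letters and does not show a bound site.

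Cd34 was lower in SLAM than in KLS cells of both genotypes, with an adjusted p under 0.05 in each. Its log2 value was 6.87 and 8.72 on the mCG-PR SLAM arrays, against 10.3, 10.8 and 10.5 on the mCG-PR KLS arrays of 6 weeks. On the WT SLAM arrays it was 7.59 and 8.79, against 10.6, 10.4, 10.2 and 10.4 on the WT KLS arrays. Every SLAM array thus lay below every KLS array, and the SLAM arrays of either genotype spread more than the KLS arrays did. The change was -2.75 ± 0.40 (log2, standard error from limma) in mCG-PR cells, 6.72-fold lower (adjusted p = 0.00108), and -2.21 ± 0.40 in WT cells, 4.63-fold lower (adjusted p = 0.00882). All 12 probe sets of Cd34 were lower in SLAM cells in both genotypes, and for each of them the SLAM arrays lay below all KLS arrays of the same genotype compared. The mean changes of the probe sets ran from -3.68 to -1.60 in mCG-PR cells and from -6.69 to -1.62 in WT cells. Without WT SLAM replicate 1 the WT change was -1.61 (adjusted p = 0.143), and without replicate 2, the array with the high neutrophil genes, -2.82 (adjusted p = 0.0223). In mCG-PR cells it was -1.82 (adjusted p = 0.0345) without SLAM replicate 1 and -3.67 (adjusted p = 0.00108) without replicate 2.

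Sult1a1, which conjugates phenols with sulfate, went the opposite way in both genotypes. It was at 8.15 and 7.54 on the mCG-PR SLAM arrays, against 6.24, 6.47 and 6.48 on the mCG-PR KLS arrays of 6 weeks. On the WT SLAM arrays it was at 8.26 and 8.39, against 6.83, 6.85, 6.64 and 6.40 on the WT KLS arrays. No SLAM array overlapped the KLS arrays. The change was 1.45 ± 0.27 in mCG-PR cells, 2.73-fold higher (adjusted p = 0.00389), and 1.65 ± 0.27 in WT cells, 3.13-fold higher (adjusted p = 0.00577). All 8 probe sets were higher in SLAM cells in both genotypes, with no overlap between arrays for 8 of 8 in mCG-PR cells and for 3 of 8 in WT cells. With a single SLAM array left, the call was lost in mCG-PR cells without replicate 1 (1.15, adjusted p = 0.0948) and in WT cells without replicate 2 (1.58, adjusted p = 0.062). It held in WT cells without replicate 1 (1.71, adjusted p = 0.0472).

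By its gene value, Pdzk1ip1 was the member with the closest SLAM replicates. It was at 7.73 and 7.66 on the mCG-PR SLAM arrays, against 6.97, 7.07 and 7.03 on the mCG-PR KLS arrays of 6 weeks. The WT SLAM arrays both read 8.78, against 7.30, 7.34, 7.54 and 7.64 on the WT KLS arrays. That closeness is one of medians: single probe sets of the WT SLAM replicates 1 and 2 lay further apart, as at 10.5 and 9.18 or at 9.84 and 10.6. SLAM arrays were above KLS arrays in both genotypes, and the 2 genotypes' SLAM arrays did not overlap either. In WT cells the change was 1.32 ± 0.23, 2.50-fold higher (adjusted p = 0.00758), and all 10 probe sets were higher. It was 1.32 without either WT SLAM array, with adjusted p = 0.067 without replicate 1 and 0.0756 without replicate 2. In mCG-PR cells it was 0.67 ± 0.23 (adjusted p = 0.0733), with 8 of 10 probe sets higher. That call depended on the processing: it passed with quantile normalisation (0.95, adjusted p = 0.0484), with array medians subtracted (0.78, adjusted p = 0.0494), with probe sets averaged (0.74, adjusted p = 0.0135) and with all arrays in 1 unweighted fit (adjusted p = 0.0124).

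Procr passed the test in mCG-PR cells. It was at 9.69 and 8.33 on the mCG-PR SLAM arrays, against 6.64, 6.46 and 6.29 on the mCG-PR KLS arrays of 6 weeks, with no overlap. On the WT SLAM arrays it was at 8.80 and 7.00, against 7.55, 6.43, 7.00 and 6.81 on the WT KLS arrays, which overlapped the lower SLAM array. The change was 2.55 ± 0.49 in mCG-PR cells, 5.86-fold higher (adjusted p = 0.00425), and 0.95 ± 0.48 in WT cells (adjusted p = 0.315). All 9 probe sets were higher in SLAM cells in both genotypes, with medians of 1.82 in mCG-PR and 0.49 in WT. Without mCG-PR SLAM replicate 1 the mCG-PR change was 1.87 (adjusted p = 0.111), and without replicate 2 it was 3.23 (adjusted p = 0.0126). The WT change was 0.05 without WT SLAM replicate 1 and 1.85 without replicate 2, and passed in neither. The difference between the genotypes was tested as an interaction, described below, and did not pass.

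**Figure D1:**
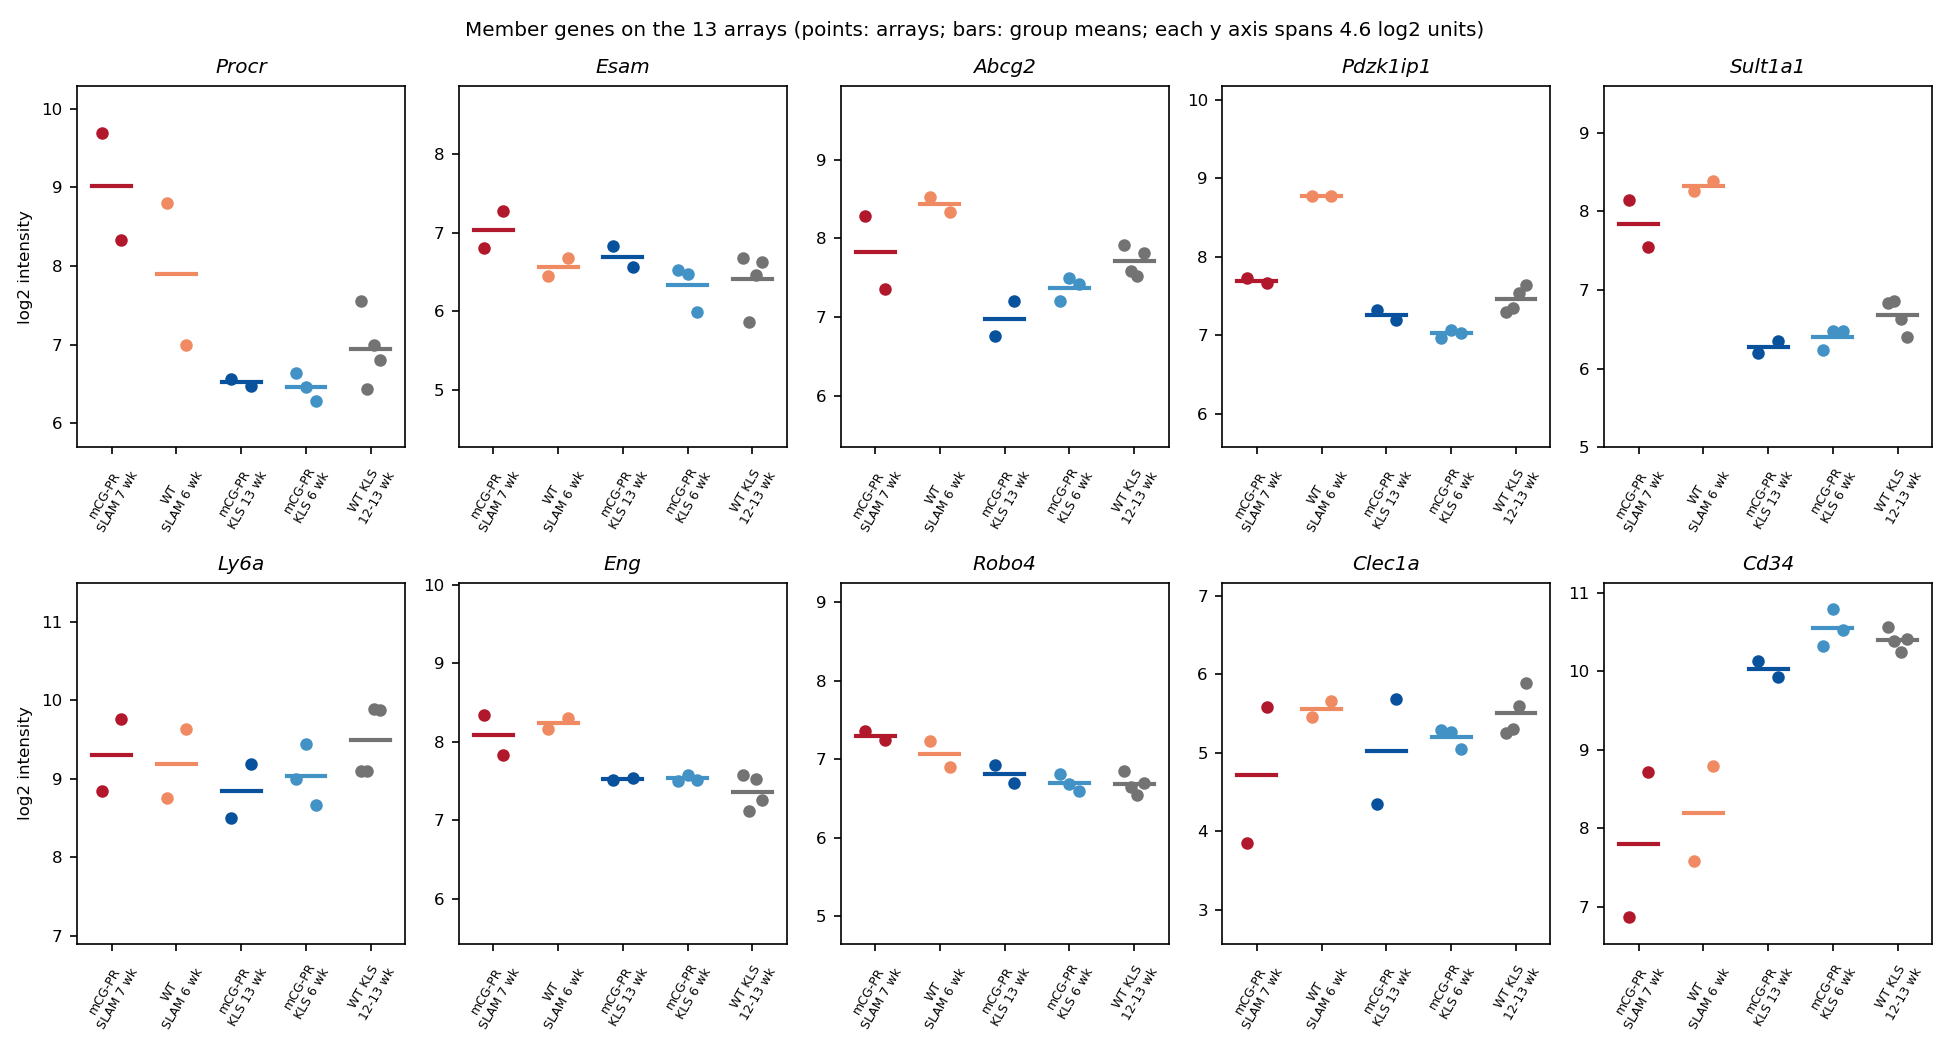
Log2 intensity (y axis, spanning 4.6 units in each panel) of the 10 members on the 13 arrays, by group along the x axis, with a point for each array and a bar for the group mean. Cd34 lies between 6.87 and 8.79 on the 4 SLAM arrays and between 9.92 and 10.8 on the 9 KLS arrays, Sult1a1 lies higher on every SLAM array than on any KLS array, and Procr spreads over 7.00 to 9.69 on the SLAM arrays.

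In all, 3 of 9 tested members passed in each genotype, 2 higher and 1 lower. In WT cells 3.12% of all tested genes passed (0.35% higher and 2.77% lower), and in mCG-PR cells 13.1% did (0.813% higher and 12.3% lower). In mCG-PR the split of all calls was 86 higher and 1301 lower, and after quantile normalisation 131 higher and 381 lower, with 4 members higher and 1 lower. Members were higher in SLAM cells in 8 of 9 cases in mCG-PR, with a median change of 0.60, where the median of all tested genes was -0.19. In WT 7 of 9 were higher, with a median of 0.72, where that of all tested genes was -0.05. Without WT SLAM replicate 2, 98 of all tested genes passed in WT, against 330 with it, and of the members Cd34 alone did, while without replicate 1 it was 94 genes. In mCG-PR, SLAM arrays lay above all KLS arrays of 6 weeks for 6 of 9 members, as for 13.2% of all tested genes. In WT, SLAM arrays lay above all KLS arrays for 5 of 9, as for 12.9%. They lay below those same KLS arrays for Cd34 alone of the members in both, as for 35.1% of all tested genes in mCG-PR and 22.3% in WT. The WT SLAM mice were 6 weeks old and the WT KLS mice 12 to 13 weeks, so in WT cells age and sort cannot be told apart. In mCG-PR cells the ages were 7 and 6 weeks. All mCG-PR SLAM arrays had low Eif2s3y, against 8.91, 8.79 and 4.18 on the mCG-PR KLS arrays of 6 weeks. Sex and sort thus largely ran together there, and the part of sex was not tested.

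The remaining members did not pass. Eng, or endoglin, an accessory receptor for TGF-beta and BMP ligands, was at 8.34 and 7.84 on the mCG-PR SLAM arrays, against 7.50 to 7.58 on the mCG-PR KLS arrays of 6 weeks. It was at 8.17 and 8.30 on the WT SLAM arrays, against 7.11 to 7.58 on the WT KLS arrays. The arrays did not overlap in either genotype, and 23 of 26 probe sets were higher in SLAM cells in both. The changes were 0.55 ± 0.26 in mCG-PR (adjusted p = 0.187) and 0.87 ± 0.25 in WT (adjusted p = 0.0777). In WT cells Eng passed with probe sets averaged (0.69, adjusted p = 0.0485) and with all arrays in 1 unweighted fit (adjusted p = 0.0119), and in mCG-PR cells with quantile normalisation (0.94, adjusted p = 0.0453). Without WT SLAM replicate 2 the WT change was 0.80 (adjusted p = 0.355).

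Robo4, a roundabout receptor of endothelium and stem cells, was at 7.36 and 7.24 on the mCG-PR SLAM arrays, against 6.60 to 6.82 on mCG-PR KLS arrays of 6 weeks, a change of 0.60 ± 0.24 (adjusted p = 0.119) with 22 of 27 probe sets higher. In WT the change was 0.39 ± 0.24 (adjusted p = 0.434), and 14 of 27 probe sets were higher. Without WT SLAM replicate 2 it was 0.55 (adjusted p = 0.542). In mCG-PR cells Robo4 passed with all 13 arrays in 1 unweighted fit (adjusted p = 0.0296). Esam, an adhesion molecule of cell junctions, was at 6.80 and 7.28 on the mCG-PR SLAM arrays, against 6.00 to 6.53 on the mCG-PR KLS arrays of 6 weeks. The change was 0.71 ± 0.36 (adjusted p = 0.229), and it passed when its 3 dim probe sets were left out (1.04, adjusted p = 0.0292). In WT cells Esam changed by 0.15 ± 0.35 (adjusted p = 0.869), with overlap between the arrays, and by 0.033 (adjusted p = 0.989) without WT SLAM replicate 2.

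Abcg2 was at 8.29 and 7.36 on the mCG-PR SLAM arrays, against 7.20, 7.50 and 7.42 on the mCG-PR KLS arrays of 6 weeks, and these overlapped. On the WT SLAM arrays it was at 8.53 and 8.34, against 7.92, 7.58, 7.52 and 7.82 on the WT KLS arrays, with no overlap. Of its 19 probe sets 16 were higher in SLAM cells in both genotypes. Its changes were 0.45 ± 0.31 (adjusted p = 0.388) in mCG-PR and 0.72 ± 0.30 (adjusted p = 0.213) in WT, where it was 0.82 (adjusted p = 0.439) without SLAM replicate 2. Ly6a, whose product is selected for in the KLS gate, read 8.85 and 9.77 in mCG-PR SLAM cells, against 8.67 to 9.44 in mCG-PR KLS cells of 6 weeks, and 8.75 and 9.63 in WT SLAM cells, against 9.10 to 9.89 in WT KLS cells. It changed by 0.27 ± 0.47 in mCG-PR and by -0.30 ± 0.46 in WT, with overlap in both, and without WT SLAM replicate 2 by -0.74 (adjusted p = 0.716). It rests on 3 probe sets, of which 2 were higher and 1 lower in WT SLAM cells, at 0.82, 0.52 and -0.30, the last being the one its gene value followed, and a further 2 probe sets are shared with Ly6c2 and were left out. Clec1a, a C-type lectin receptor, had 6 of 9 probe sets among the dimmest 30% on the array, and its change was -0.48 ± 0.49 in mCG-PR and 0.05 ± 0.48 in WT, with no test, its WT SLAM arrays being at 5.46 and 5.66. Its 2 mCG-PR SLAM arrays lay far apart, at 3.85 and 5.58, as did its mCG-PR KLS arrays of 13 weeks, at 4.35 and 5.69, against 5.25 to 5.89 on the WT KLS arrays.

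**Figure D2:**
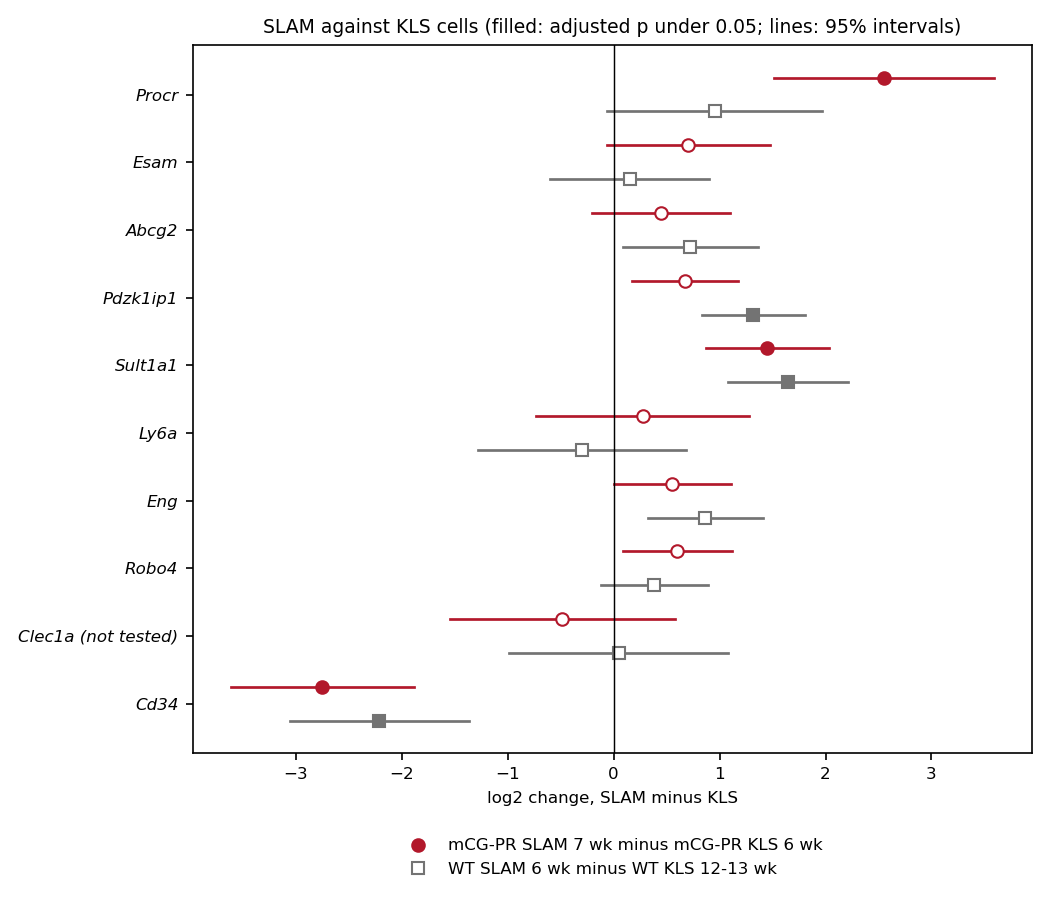
Log2 change of each member between SLAM and KLS cells (x axis) with its 95% interval from limma, for mCG-PR (red circles) and WT (grey squares), filled where the adjusted p is under 0.05. Cd34 is the only member with intervals wholly below 0 in both genotypes, Sult1a1 passes above 0 in both, Procr passes in mCG-PR and Pdzk1ip1 in WT.

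Lists of other genes of the same cells, chosen with earlier results of these data known, were read between the sorts too. Of 29 tested long-term stem cell genes outside the members, 23 were higher in mCG-PR SLAM cells than in mCG-PR KLS cells, 5 of them past the test, with a median change of 0.55. In WT 24 of 29 were higher, 5 past the test, with a median of 0.62. Among these 5 was Slamf1, a receptor of the family that the SLAM sort goes by, which passed the filter through its SLAM values. Vwf, the von Willebrand factor of platelet-biased stem cells, rose by 0.81 (adjusted p = 0.0242) in mCG-PR and by 1.14 (adjusted p = 0.0117) in WT, and Tgm2, a transglutaminase, by 0.98 (adjusted p = 0.0219) and 1.50 (adjusted p = 0.00701). Mllt3 rose by 1.37 in mCG-PR (adjusted p = 0.0051) and Tek, the angiopoietin receptor Tie2, by 1.50 in WT (adjusted p = 0.0202). Of all tested genes 0.813% passed as higher in mCG-PR and 0.35% in WT, and 12.3% and 2.77% as lower. All 14 tested genes of multipotent progenitors were lower in SLAM cells in both genotypes, 10 past the test in mCG-PR and 5 in WT. Cd48, Cd244a and Flt3 of this list were also used to recognise the sorts, and they passed in both genotypes. The part of the sort itself in their fall was not tested. In WT 13 of the 14 genes were lower after either rescaling of the arrays. Flt3, the progenitor receptor, fell by 2.21 in mCG-PR and by 2.67 in WT (adjusted p = 0.000301 and 5.75e-05), and Dntt, the terminal transferase of lymphoid precursors, by 6.14 and 5.05 (adjusted p = 8.49e-07 and 9.68e-06). Without WT SLAM replicate 2, none of the 29 stem cell genes passed in WT, 23 being higher with a median of 0.55. Vwf then changed by 1.05 (adjusted p = 0.129), Tgm2 by 1.43 (adjusted p = 0.0783) and Tek by 1.68 (adjusted p = 0.0884). All 14 progenitor genes stayed lower there, 5 past the test, among them Flt3 (-2.57, adjusted p = 0.00383) and Dntt (-4.98, adjusted p = 0.000999).

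Several members are also endothelial genes, so the defining genes of endothelium were read beside them. Of 14 measured endothelial genes 6 passed the filter on low values, and none passed the test in either comparison of SLAM with KLS cells. In each genotype 3 of the 6 were higher and 3 lower in SLAM cells. Kdr, the VEGF receptor of endothelium, averaged 4.88 on mCG-PR SLAM arrays and 4.47 on WT SLAM arrays, against 4.66 on mCG-PR KLS arrays of 6 weeks and 4.78 on WT KLS arrays, all under the filter threshold of 6.00. Cdh5, VE-cadherin, averaged 5.35 on mCG-PR SLAM arrays and 6.01 on WT SLAM arrays, against 5.96 and 5.37 in those KLS groups. Pecam1 averaged 7.44 on mCG-PR SLAM arrays and 7.61 on WT SLAM arrays, against 8.56 and 8.40. Emcn averaged 7.70 on mCG-PR SLAM arrays and 7.98 on WT SLAM arrays, against 8.09 and 7.97. Its WT SLAM arrays lay far apart, at 7.07 and 8.89, against 7.71 to 8.30 on the WT KLS arrays. The mean over the 14 genes lay between 6.24 and 6.35 on mCG-PR SLAM arrays and at 6.28 on both WT SLAM arrays, against 6.20 to 6.28 on mCG-PR KLS arrays of 6 weeks and 5.96 to 6.05 on WT KLS arrays.

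Partners of the members were read list by list between the sorts, where 13.1% of all tested genes passed in mCG-PR and 3.12% in WT. In the endoglin and TGF-beta/BMP list 1 of 16 tested genes passed in each genotype, both lower in SLAM cells. Id2, an inhibitor of differentiation induced by BMP signals, fell by 1.58 in mCG-PR (adjusted p = 0.0181), and Smad2, a signal transducer of TGF-beta, fell by 1.28 in WT (adjusted p = 0.0149). None of 6 tested genes of the protein C and thrombin pathway, of 6 of Slit and Robo or of 5 of junctional adhesion passed in either. Nor did any of 7 in the list of CD34 family and sialomucin genes or of 8 of the Ly6 family. Of 9 ABC efflux transporters, Abcb1b, a multidrug efflux pump, changed by -1.06 (adjusted p = 0.0355) in mCG-PR and by -1.17 (adjusted p = 0.0485) in WT SLAM cells, and Abcg3 was higher by 2.12 (adjusted p = 0.0194) in mCG-PR. Among 5 tested C-type lectins near Clec1a, Clec7a, the beta-glucan receptor dectin-1, was higher by 1.72 (adjusted p = 0.0329) in WT SLAM cells. In mCG-PR SLAM cells 3 of the 5 passed as lower, where 12.3% of all tested genes did. Without WT SLAM replicate 2 none of these WT calls held, with -1.23 for Smad2 (adjusted p = 0.127), -1.25 for Abcb1b (adjusted p = 0.209) and 1.09 for Clec7a (adjusted p = 0.381).

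Turning to genotype, no member passed the test between mCG-PR and WT cells in any comparison. In KLS cells of both ages together, 0 of 9 members passed, as did 0.151% of all tested genes (13 higher and 3 lower, or 6 and 4 after quantile normalisation), and 5 members had an unadjusted p under 0.05 in limma, all lower in mCG-PR. At that level 2.74% of all tested genes were lower and 10.6% higher. These 5 were Abcg2, Pdzk1ip1, Procr, Sult1a1 and Ly6a. The members' median change was -0.33, against 0.09 over all tested genes. The mCG-PR mice of 6 weeks were set against WT mice of 12 to 13 weeks, so age and genotype cannot be told apart there. At 6 weeks none passed, beside 0.0378% of all tested genes, and 2 (Procr and Pdzk1ip1) were lower at an unadjusted p under 0.05, where 1.68% of all tested genes were lower and 10.9% higher. At 13 weeks none passed, beside 0.00946%, and 4 (Abcg2, Sult1a1, Ly6a and Cd34) were lower at that level, where 5.92% of all tested genes were lower and 7.59% higher. The mCG-PR arrays lay below all WT arrays for 2 of 9 members at 6 weeks (Abcg2 and Pdzk1ip1; 1.54% of all tested genes) and for 3 at 13 weeks (Abcg2, Sult1a1 and Cd34; 10.2%). They lay above for none, against 9.46% of all tested genes at 6 weeks and 14.8% at 13 weeks.

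Abcg2 had the lowest p of the members in KLS cells of both ages. It was at 6.75 and 7.20 on the mCG-PR KLS arrays of 13 weeks and at 7.20, 7.50 and 7.42 on those of 6 weeks, against 7.92, 7.58, 7.52 and 7.82 on the WT KLS arrays. All 5 mCG-PR arrays lay below all 4 WT arrays. Abcg2 was the 1 of 9 members for which this held, as it did for 0.652% of all tested genes, while 3.55% lay wholly above. Means were 7.21 ± 0.29 in mCG-PR KLS cells (SD, n = 5) and 7.71 ± 0.19 in WT KLS cells (SD, n = 4), a change of -0.50 ± 0.14 (adjusted p = 0.171), or 1.41-fold lower. Of its 19 probe sets 18 were lower. By age the changes were -0.73 (adjusted p = 0.162) at 13 weeks and -0.34 (adjusted p = 0.414) at 6 weeks. Against the WT mice of 13 weeks alone it was -0.54 (adjusted p = 0.242), and against those of 12 weeks -0.46 (adjusted p = 0.508).

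The other 4 of these members overlapped between the genotypes. Pdzk1ip1 was at 7.33 and 7.20 at 13 weeks and at 6.97 to 7.07 at 6 weeks in mCG-PR KLS cells, against 7.30 to 7.64 in WT KLS cells, a change of -0.34 ± 0.12 (adjusted p = 0.273). It was -0.20 (adjusted p = 0.622) against the WT mice of 13 weeks and -0.47 (adjusted p = 0.422) against those of 12 weeks. Procr was at 6.56 and 6.48 at 13 weeks and at 6.29 to 6.64 at 6 weeks in mCG-PR KLS cells, against 6.43 to 7.55 in WT KLS cells. The change was -0.46 ± 0.19 (adjusted p = 0.316), and WT replicate 2 alone lay within the mCG-PR range. Sult1a1 changed by -0.33 ± 0.14 (adjusted p = 0.316), and its 8 probe sets were split, 4 lower and 4 higher. It was -0.49 (adjusted p = 0.21) against the WT mice of 13 weeks and -0.17 (adjusted p = 0.78) against those of 12 weeks. Ly6a was at 8.51 and 9.18 at 13 weeks and at 8.99, 9.44 and 8.67 at 6 weeks in mCG-PR KLS cells. The WT KLS arrays of 13 weeks both read 9.10, and those of 12 weeks 9.89 and 9.88. The Ly6a change of -0.53 ± 0.22 (adjusted p = 0.323) also depended on the WT mice: it was -0.14 (adjusted p = 0.837) against those of 13 weeks and -0.92 (adjusted p = 0.347) against those of 12 weeks.

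Eng, Esam, Robo4 and Cd34 showed smaller differences, of 0.16 ± 0.13, 0.07 ± 0.18, 0.06 ± 0.13 and -0.07 ± 0.14. Their 95% intervals were -0.12 to 0.44 for Eng, -0.32 to 0.46 for Esam, -0.21 to 0.33 for Robo4 and -0.36 to 0.22 for Cd34, so changes within those bounds could not be told from none. Clec1a differed by -0.38 ± 0.24, with no test. Between the ages of mCG-PR mice, Cd34 was at 10.1 and 9.92 at 13 weeks, against 10.3, 10.8 and 10.5 at 6 weeks, with no overlap. This change of -0.52 ± 0.18 (adjusted p = 0.315) had 11 of 12 probe sets lower, and no other member had an unadjusted p under 0.05 between the ages, a level at which 9.37% of all tested genes were lower and 2.76% higher. None of 9 members and 0.00946% of all tested genes passed there. The arrays of the ages did not overlap for Abcg2 and Cd34, lower at 13 weeks as for 20.1% of all tested genes, and for Esam and Pdzk1ip1, higher as for 10.7%.

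**Figure D3:**
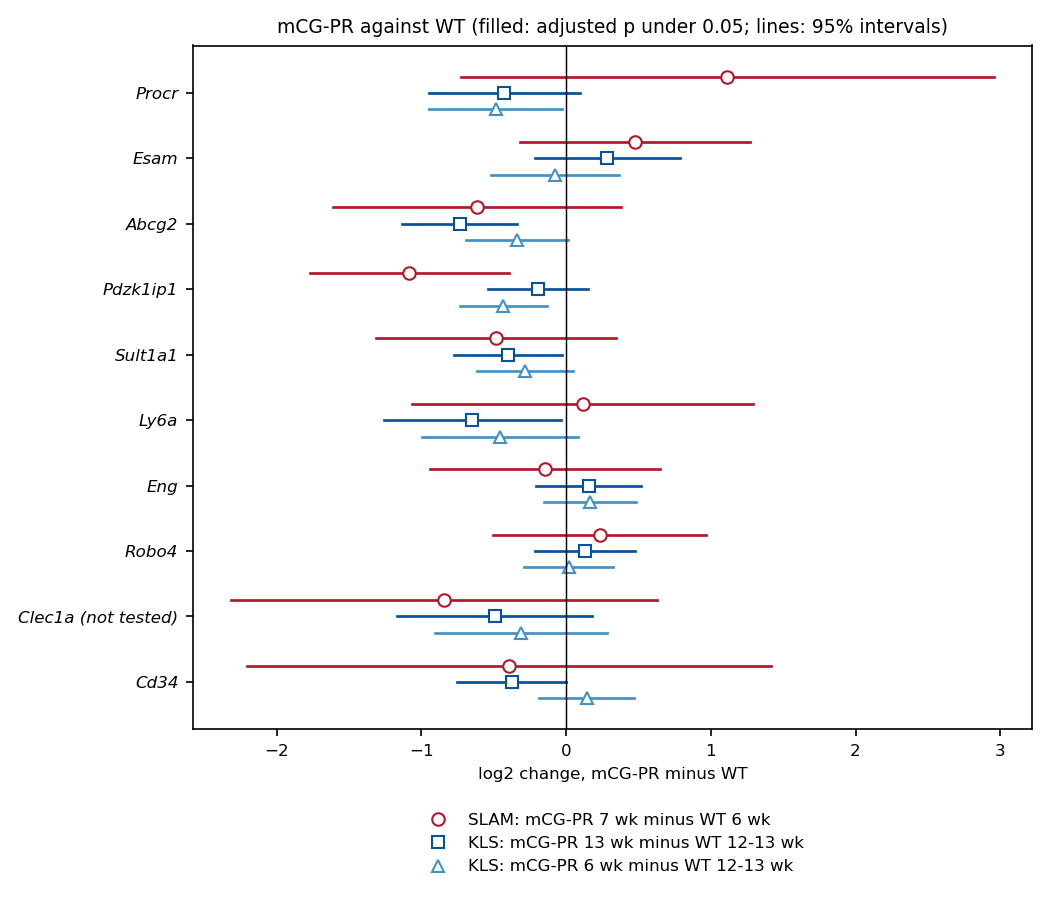
Log2 change of each member between mCG-PR and WT (x axis) with its 95% interval from limma, for SLAM cells (red circles), KLS cells of 13 weeks (dark blue squares) and KLS cells of 6 weeks (light blue triangles), against WT KLS cells of 12 to 13 weeks. No symbol is filled, since no adjusted p was under 0.05, Abcg2, Pdzk1ip1, Sult1a1 and Clec1a are below 0 in all 3 and the SLAM intervals are the widest for every member.

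**Figure D4:**
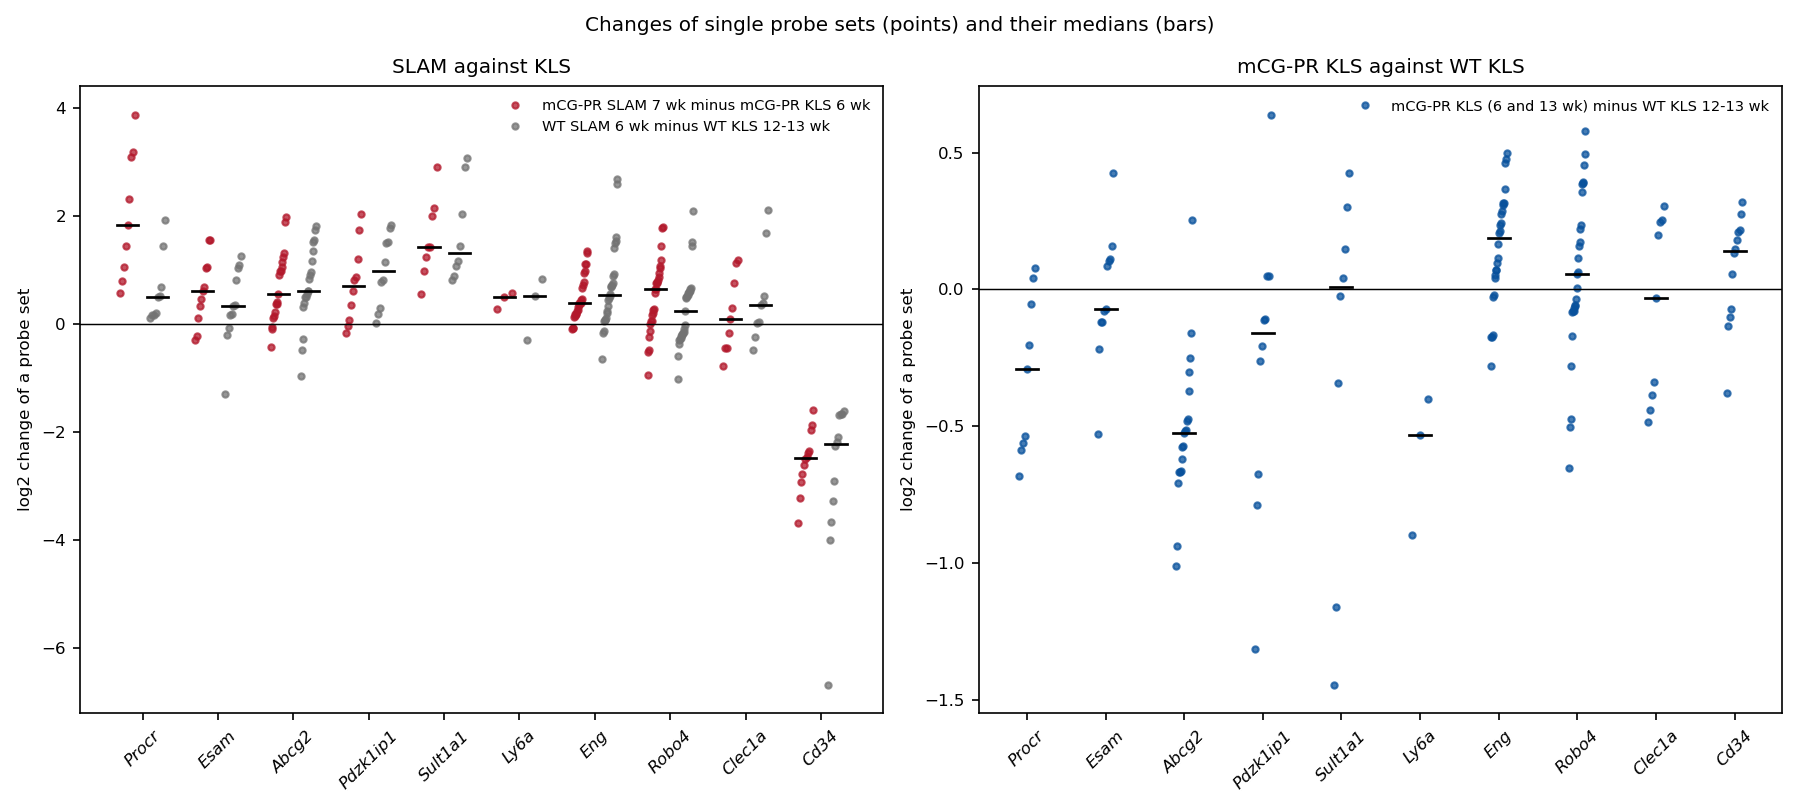
Log2 change of single probe sets (y axis) of each member (x axis), with bars at their medians, between SLAM and KLS cells in mCG-PR (red) and WT (grey) in the left panel and between mCG-PR KLS and WT KLS cells in the right panel. All 12 probe sets of Cd34 lie below 0 and all of Sult1a1 and Procr above 0 on the left, and 18 of 19 of Abcg2 lie below 0 on the right.

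Other genes of these populations were read beside the members in KLS cells. Of 29 tested long-term stem cell genes outside the members, 18 were lower in mCG-PR KLS cells, with a median of -0.07 and none past the test. Of all tested genes 68.0% were higher there, with a median of 0.09, and 0.151% passed. All 14 tested progenitor genes were higher, with a median of 0.46, and 2 passed (1 after either rescaling of the arrays). These were Irf8, a factor of monocyte and dendritic cell fate, by 1.22 (adjusted p = 0.021), and Il7r, the lymphoid cytokine receptor, by 1.37 (adjusted p = 0.0485). Flt3 averaged 10.6 in mCG-PR KLS cells of either age, against 10.2 in WT KLS cells (change 0.38, adjusted p = 0.258). Among Ly6a's own family, Ly6d, which marks lymphoid precursors, was higher by 1.05 (adjusted p = 0.0223). The part of the make-up of the KLS sort in the members' differences was not tested.

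In SLAM cells 0 of 9 members passed between the genotypes, and 0 of 10575 genes did with limma, with 661 genes at an unadjusted p under 0.05 (4.07% of all tested genes lower, among them Pdzk1ip1 alone of the members, and 2.18% higher). Pdzk1ip1 averaged 7.69 ± 0.05 on mCG-PR SLAM arrays and 8.78 ± 0.0009 on WT SLAM arrays (SD, n = 2 each). These SDs are of medians over its probe sets, which singly differed more between the WT SLAM arrays. The change was -1.08 ± 0.27 (adjusted p = 0.756), 2.12-fold lower, and 9 of 10 probe sets were lower. With the 13 arrays weighted by sorted population in 1 fit its adjusted p was 0.384, and with all arrays unweighted it was 0.012. With probe sets averaged the change was -0.58 (adjusted p = 0.752), and the median over its probe sets was -0.25, within -2.55 to 0.00. Leaving out any 1 SLAM array gave changes between -1.12 and -1.05. The arrays of the genotypes did not overlap for 5 of 9 members, higher in mCG-PR for Esam and Robo4 and lower for Abcg2, Pdzk1ip1 and Sult1a1, as they did not for 16.4% (higher) and 18.8% (lower) of all tested genes. Means for Procr were 9.01 ± 0.96 on mCG-PR SLAM arrays and 7.90 ± 1.27 on WT SLAM arrays (SD, n = 2 each), a change of 1.11 ± 0.73 (adjusted p = 0.883). It ran from 0.22 without WT SLAM replicate 2 to 2.01 without WT SLAM replicate 1.

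Whether genotype acted differently in the sorts was tested as the genotype change in SLAM minus that in KLS cells. It also carries the difference in Eif2s3y between the SLAM groups and the difference in age between the KLS groups. Sex, age and genotype cannot be told apart in it. No member and no gene passed with limma (0%), and 859 genes had an unadjusted p under 0.05 (2.11% higher and 6.01% lower). Procr had a difference of 1.58 ± 0.67 (adjusted p = 0.56, higher at an unadjusted p under 0.05), the changes being 1.11 in SLAM cells and -0.46 in KLS cells. It was 0.68 without WT SLAM replicate 2 and 2.48 without WT SLAM replicate 1. Pdzk1ip1 had a difference of -0.74 ± 0.32 (adjusted p = 0.573, lower at that unadjusted level), being lower in mCG-PR cells of both sorts. The other 7 tested members had an unadjusted p above 0.3.

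The spread between arrays limited what SLAM cells could show. Over all tested genes the median pooled SD of replicates was 0.33 in SLAM and 0.22 in KLS cells. In SLAM cells it was 1.13 for Procr, 1.10 for Cd34 and 0.63 for Ly6a. It was 0.03 for Pdzk1ip1, whose single probe sets differed more between the WT SLAM arrays. Procr and Cd34 spread in opposite directions: in both genotypes the SLAM array with more Procr had less Cd34. Over the 9 KLS arrays, where Cd34 spread little, their Pearson r was 0.13. The arrays share a platform and 1 normalisation, and r is a description.

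Across the members' 45 pairs, the median Pearson r over the 9 KLS arrays was 0.22, from -0.57 to 0.82. Ly6a and Clec1a had the highest r, 0.82, and Abcg2 and Sult1a1 had 0.73. Over all 13 arrays, which fall into 2 clusters by sort, the gene outside the members with the pattern most like Cd34 was Fip1l1 (r = 0.98, and 0.67 over the KLS arrays alone). For Sult1a1 it was Vamp8 (r = 0.97, and 0.79 over the KLS arrays), for Procr Mpzl1 (0.93 and 0.10), for Pdzk1ip1 Rras (0.91 and 0.63), for Abcg2 Igf1r (0.90 and 0.70) and for Eng Serpina3g (0.94 and 0.64). Esam was most like Tbx3 (0.92 and 0.88), Robo4 like Mpzl1 (0.91 and 0.16), Ly6a like Slc6a13 (0.81 and 0.86) and Clec1a like Dach1 (0.85 and 0.61). The likeness of Procr and Robo4 to Mpzl1 was thus high across the sorts and low within KLS cells.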

How the data were processed

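Gene expression was measured on 13 arrays, 1 mouse each. The authors' deposited table holds an intensity on a linear scale for each probe set and array, from 2.34 to 21748.2, made with RMA and build mm9 per the submitters' processing notes. Its settings are not given in the sources read. Log2 was taken, and no further scaling was applied.

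A gene's value was the median over its single-gene probe sets, with at least 3, and genes whose mean log2 value exceeded the 30th percentile were tested (10575 of 15107). Limma 3.58.1 in R 4.3.3 gave two-sided p-values, with the Benjamini-Hochberg adjustment over every tested gene at 0.05. KLS comparisons used the 9 KLS arrays and the SLAM genotype comparison the 4 SLAM arrays, since SLAM replicates spread more. Comparisons across sorts used 13 arrays weighted by sort. All 10 members were named in every comparison, and of each other gene list the counts and up to 3 genes with the smallest p. Further genes were named as markers outside that rule, among them Kdr and Cdh5, which were under the filter and not tested. Likeness was Pearson r over the arrays. The members and lists were chosen with earlier results of these data known. The code was tested on simulated data.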

Additional observations from a re-analysis of the deposited data

How the results depend on the processing

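Of 1215 values of single members under the alternatives tried, 1144 kept their direction and their side of the threshold, 6 no longer passed, 10 passed that had not, and 55 changed sign, none of these with an adjusted p under 0.05. The cause was not tested. In mCG-PR SLAM against mCG-PR KLS cells 3 members passed, 5 did after quantile normalisation and 5 with all arrays in 1 unweighted fit, and 1 to 3 without single arrays, 1 being without SLAM replicate 1. In WT, 1 to 3 passed without single arrays, 1 being without either SLAM array. In mCG-PR against WT SLAM cells 1 passed in the unweighted fit, where 270 genes did, against 0 otherwise. Calls over all tested genes ranged over the alternatives from 397 to 2394 in mCG-PR SLAM against KLS cells, from 94 to 1229 in WT, and in mCG-PR against WT KLS cells from 0 to 54 for both ages, 0 to 43 at 6 weeks and 0 to 15 at 13 weeks, where quantile normalisation gave 4 higher and 11 lower. They ranged from 0 to 17 for 13 against 6 weeks and from 0 to 100 in the interaction. The median of all genes in mCG-PR SLAM against KLS cells was -0.19, and 0.056 after quantile normalisation, relative to which Cd34 was still lower and Sult1a1 and Procr higher. Same-numbered arrays did not deviate together (0 of 21 pairs with r over 0.1), so no pairing by number was seen. With so few arrays a group, this does not exclude it. The replicate block changed no member's call, and all-gene calls were 6 against 16 in KLS cells of both ages, 189 against 330 in WT SLAM against KLS cells and 999 against 1387 in mCG-PR.

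The use of Ly6a's shared probe sets and the SLAM fit on 13 weighted arrays were chosen after seeing the data. The changes of sign are these, with the value of the report in parentheses, on the log2 scale. In mCG-PR SLAM against mCG-PR KLS cells, Abcg2 (0.45) ran from -0.017 to 0.92 without single arrays. Ly6a (0.27) ran from -0.18 to 0.73 without single arrays. In WT SLAM against WT KLS cells, Ly6a (-0.30) was 0.35 with probe sets averaged and ran from -0.74 to 0.14 without single arrays. Esam (0.15) ran from -0.030 to 0.27 without single arrays. In mCG-PR KLS of both ages against WT KLS cells, Esam (0.067) was -0.022 with probe sets averaged, -0.14 on bright probe sets, -0.014 with array medians subtracted, -0.071 against 12-week WT and ran from -0.12 to 0.19 without single arrays. Cd34 (-0.066) was 0.072 with probe sets averaged, 0.0046 against 12-week WT and ran from -0.18 to 0.039 without single arrays. Robo4 (0.062) was -0.0074 after quantile normalisation, -0.019 with array medians subtracted, -0.0022 against 13-week WT. At 6 weeks Robo4 (0.018) was -0.0026 with probe sets averaged, -0.036 on bright probe sets, -0.052 after quantile normalisation, -0.066 with array medians subtracted, -0.047 against 13-week WT and ran from -0.040 to 0.073 without single arrays. Cd34 (0.14) was -0.031 after quantile normalisation. Esam (-0.078) was 0.060 against 13-week WT and ran from -0.26 to 0.091 without single arrays. At 13 weeks Esam (0.28) was -0.049 on bright probe sets. For 13 against 6 weeks Sult1a1 (-0.12) was 0.26 with probe sets averaged. Ly6a (-0.19) was 0.030 after quantile normalisation, 0.24 with its shared probe sets and ran from -0.53 to 0.15 without single arrays. Eng (-0.010) was 0.11 after quantile normalisation, 0.016 with the replicate block and ran from -0.025 to 0.013 without single arrays. Robo4 (0.11) ran from -0.0064 to 0.23 without single arrays. Procr (0.057) ran from -0.029 to 0.15 without single arrays. In mCG-PR against WT SLAM cells, Ly6a (0.12) was -0.48 with probe sets averaged, -0.19 with its shared probe sets and ran from -0.34 to 0.57 without single arrays. Cd34 (-0.39) was 0.51 with probe sets averaged and ran from -1.32 to 0.53 without single arrays. Eng (-0.14) ran from -0.40 to 0.11 without single arrays. In the interaction Abcg2 (-0.12) was 0.099 with probe sets averaged, 0.0039 after quantile normalisation and ran from -0.58 to 0.35 without single arrays. Cd34 (-0.33) was 0.44 with probe sets averaged and ran from -1.25 to 0.59 without single arrays. Sult1a1 (-0.15) ran from -0.45 to 0.15 without single arrays.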
